A study of Mus musculus with 6 samples.

Results

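Lysosomes break down what a cell engulfs or discards, and 36 mouse genes for their proton pump, membrane proteins, hydrolases and controlling transcription factors were followed here in microglia-like cells given lipopolysaccharide (LPS). They are a named set of genes, found in the deposited table by Ensembl identifier, and all 36 of them were among its 55401 genes and passed the filter on low counts. The set holds 16 genes of the vacuolar-type proton pump (V-ATPase), 4 of the lysosomal membrane, 13 of hydrolases and their cofactors, and 3 of the MiT family of transcription factors. The samples were BV2 cells, an immortalised mouse microglial cell line, and poly(A)-selected RNA was sequenced from 3 libraries of cells treated with LPS and 3 of cells given Vehicle. LPS comes from the outer envelope of Gram-negative bacteria. The labels gave no dose, no duration of treatment and no vehicle compound, named no genetic change in either group, and left unstated whether replicate libraries were made from different cultures. The p-values therefore measure only the spread between these libraries. BV2 is a single immortalised line, so no second line or primary microglia stand beside these values.

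The V-ATPase spends ATP to pump protons into the lysosome. Its V0 sector lies in the membrane and carries the protons, and its V1 sector sits on the cytosolic side and hydrolyses ATP. The acid that results is needed by hydrolases that digest sugars, lipids and proteins, while heavily glycosylated membrane proteins line and shield the inside of the organelle. Tfeb, Tfe3 and Mitf are related transcription factors that bind E-box sequences in the promoters of many lysosomal genes and are held in the cytosol when the kinase mTOR is active at the lysosome. In microglia and macrophages the same organelle degrades engulfed bacteria, debris and lipids, and loss of several of these enzymes causes inherited storage diseases with brain involvement.

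The response to LPS was visible in the inflammatory genes used as a check. Tnf, Il1b, Il6 and Nos2 were all higher with LPS, at log2 fold changes of 3.40, 7.90, 7.97 and 7.67, and edgeR adjusted p-values between 1.73e-07 and 3.56e-05. Library totals ran from 45969690 to 59023474 estimated counts, and a single member had between 592 (Tfeb) and 100884 (Psap) of them in a library. Levels are given as CPM, counts relative to the scaled size of the library. Macrophage markers were present, with a sum over 11 genes of 1586 to 2002 CPM in LPS libraries and 1981 to 2189 CPM in Vehicle libraries. Cd68 alone averaged 918 CPM in LPS libraries and 959 CPM in Vehicle libraries. Of these 11 genes 1 rose and 3 fell by the test given below, or 36.4%, against 23.6% of all tested genes. Adgre1 rose, and Csf1r, Tyrobp and P2ry12 fell. The part of these markers in the results was not tested. However, P2ry12, a marker of resting microglia, stayed under 1 CPM in every library. Cx3cr1, Tmem119 and Aif1 were low too, with highest library values of 2.5, 2.6 and 4.6 CPM. Csf1r, Itgam, Ptprc, Adgre1, Spi1 and Tyrobp had group means of 87.0 CPM or more. Marker sums for astrocytes, neurons, oligodendrocytes and fibroblasts with endothelium did not exceed 11.6 CPM in any library. Under 1 CPM in every library were 3, 2, 4 and 4 of the 6 genes of these lists in turn, among them Gfap, Rbfox3, Mog and Col1a1. The LPS libraries were less alike than the Vehicle libraries: on the second principal component of log2 CPM LPS 1 lay at 62.8 and LPS 3 at -66.3, with the Vehicle libraries between -0.898 and 16.5. In bulk RNA, fewer cells that express a gene and less of its RNA per cell cannot be told apart.

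With LPS, 9 of the 36 genes fell, 3 rose and 24 did not pass the test. The genes that fell were Lamp1 and Laptm5 of the membrane, Psap, Man2b1, Lipa, Asah1 and Tpp1 of the hydrolases and cofactors, Tfeb among the transcription factors and the pump gene Atp6v0d2. Gaa, Ppt1 and the pump gene Atp6v1d rose. A gene was called when the Benjamini-Hochberg adjusted p of edgeR's quasi-likelihood test, over all 16371 tested genes, was under 0.05. By this rule 33.3% of the members were called, against 23.6% of all tested genes. Lower calls made up 25.0% of the members and 10.9% of all tested genes, and higher calls 8.33% and 12.7%. All tested genes include many of lower level than the members, each of which had at least 592 counts in every library. With a filter at a mean of 5 CPM, 1823 of 10539 genes were higher and 1641 lower, and the same 3 and 9 members. With that filter the share of all genes called was larger and close to that of the members. Lower calls were still a larger share of the members than of all genes, and higher calls a smaller one. The shares of all tested genes given here and below are not matched for level. None of the called members changed by as much as 2-fold, a size that 7.82% of all tested genes reached with a call.

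The median log2 fold change was -0.12 over the members and -0.02 over all tested genes. With libraries scaled by their total counts alone, 1 member was higher and 11 were lower, and 42.2% of all called genes were higher, against 53.9% with the TMM scaling used here. In that scaling the median of all genes was -0.10 and that of the members -0.21. Without LPS 1 or without Vehicle 1 a single member was higher, and without LPS 3 there were 5. LPS and Vehicle values stood apart, without overlap, for 20 members, or 55.6%, against 40.8% of all tested genes. All 12 called members were among these 20.

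**Figure D1:**
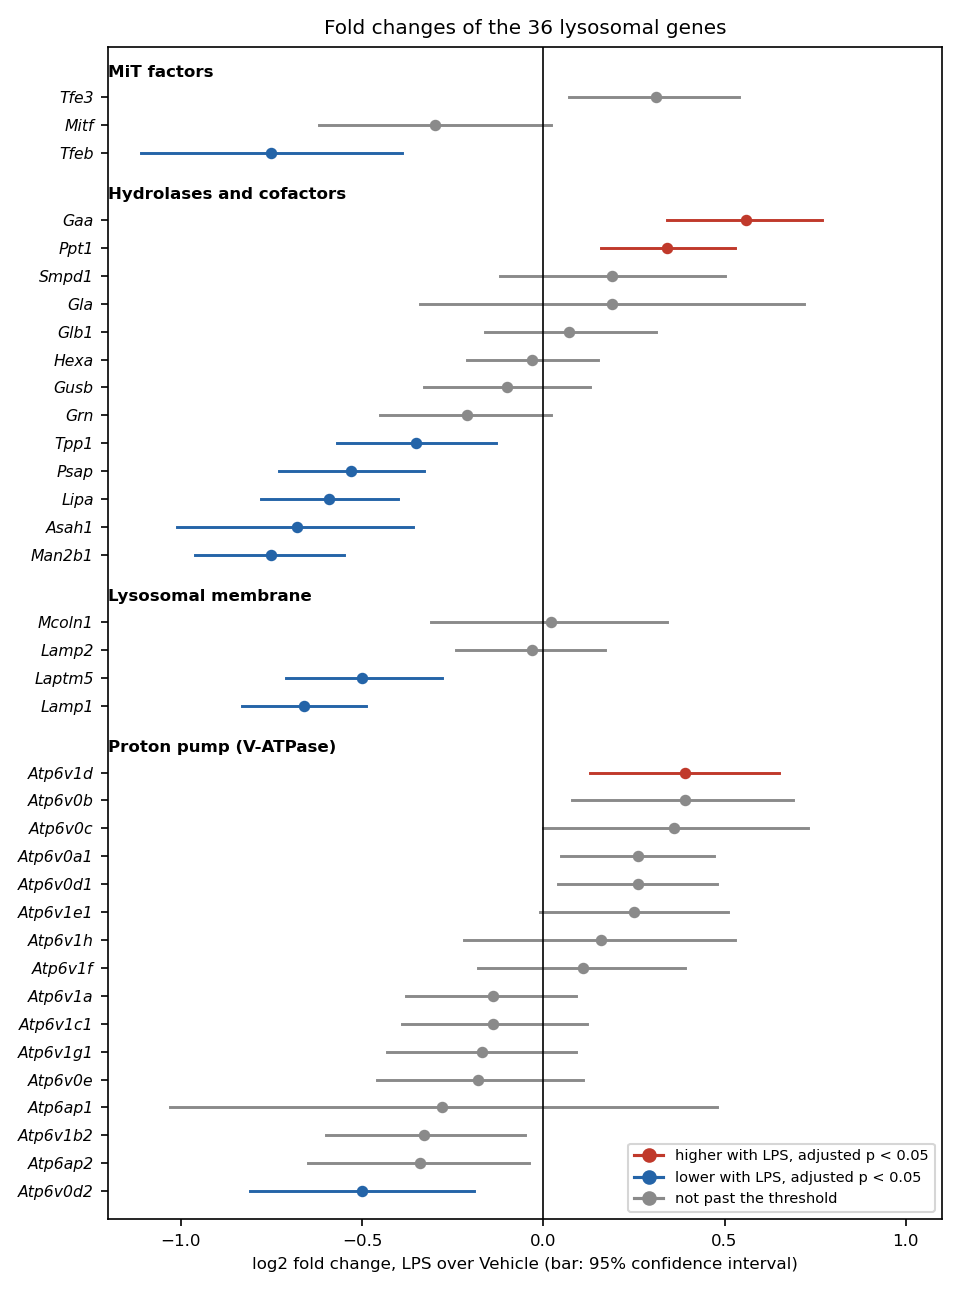
Log2 fold change of each of the 36 genes, LPS over Vehicle, on the horizontal axis with its 95% confidence interval (3 libraries per group), by class. Blue genes were lower and red genes higher at an adjusted p under 0.05, and values ran from -0.75 (Man2b1 and Tfeb) to 0.56 (Gaa).

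Among the MiT factors, Tfeb fell and the other members did not pass the test. That is 33.3% of 3 genes called, against 23.6% of all tested genes. Tfeb (ENSMUSG00000023990), the factor best known for switching on lysosomal genes, had 11.8, 16.5 and 12.8 CPM in LPS libraries 1, 2 and 3, against 24.9, 22.5 and 21.6 CPM in Vehicle libraries 1, 2 and 3. The groups did not overlap, and LPS 2 was the highest of the treated libraries. Its log2 fold change was -0.75 ± 0.16 (standard error, SE, from edgeR, 3 libraries per group) with an adjusted p = 0.0104, and its call held in all 16 alternatives. Tfe3 (ENSMUSG00000000134), its close relative, had 55.9, 60.4 and 66.9 CPM in LPS libraries 1, 2 and 3, against 50.8, 48.9 and 48.5 CPM in Vehicle libraries 1, 2 and 3. Every LPS library lay above every Vehicle library, but at 0.31 ± 0.10 the adjusted p = 0.0631 missed the threshold in the edgeR fit, while DESeq2 gave an adjusted p of 0.0455. Mitf (ENSMUSG00000035158), which also controls pigment cells and osteoclasts, had 29.3, 26.2 and 35.3 CPM in LPS libraries 1, 2 and 3, against 33.4, 39.4 and 39.02 CPM in Vehicle libraries 1, 2 and 3. LPS 3 overlapped the Vehicle range, and the 95% interval of the log2 fold change ran from -0.62 to 0.02. Mitf passed the test only when LPS 3 was left out, with an adjusted p = 0.0416.

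The balance within the family followed from these values. The log2 ratio of Tfeb to Tfe3 counts was -2.24, -1.87 and -2.38 in LPS libraries 1, 2 and 3, against -1.03, -1.12 and -1.17 in Vehicle libraries 1, 2 and 3. The mean was -2.16 ± 0.26 with LPS and -1.10 ± 0.07 with vehicle (SD, n = 3 each), a difference of -1.06. Per kilobase of the longest annotated transcript, Tfeb averaged 5.86 ± 1.04 CPM per kilobase in LPS libraries and 9.83 ± 0.715 in Vehicle libraries. Tfe3 averaged 9.65 ± 0.875 CPM per kilobase in LPS libraries and 7.81 ± 0.193 in Vehicle libraries (SD, n = 3 each). On this scale Tfeb was the most abundant of the 3 in Vehicle libraries and the least abundant in LPS libraries, although Tfeb with LPS, at 5.86, lay within 1 SD of Mitf, at 6.203 ± 0.9502. The order rests on the transcript lengths chosen.

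Of the 4 membrane genes, Lamp1 and Laptm5 fell and Lamp2 and Mcoln1 did not pass the test. Lower calls thus made up 50% of the class, against 10.9% of all tested genes. None of the 4 rose in edgeR, DESeq2 or limma voom, nor at an unadjusted p under 0.05. Lamp1 (ENSMUSG00000031447), a major glycoprotein of the lysosomal membrane, had 612, 606 and 613 CPM in LPS libraries 1, 2 and 3, against 958, 927 and 1009 CPM in Vehicle libraries 1, 2 and 3. The LPS libraries were nearly equal, with a coefficient of variation of 0.637%, and all far below the Vehicle libraries. The log2 fold change was -0.66 ± 0.08 with an adjusted p = 0.000584, the smallest among the 36 genes. Laptm5 (ENSMUSG00000028581), a transmembrane protein of lysosomes in blood-derived cells, had 385, 410.2 and 474 CPM in LPS libraries 1, 2 and 3, against 608, 585 and 596 CPM in Vehicle libraries 1, 2 and 3. Its groups did not overlap either, with LPS 3 nearest to the Vehicle libraries, and the log2 fold change was -0.50 ± 0.10 (adjusted p = 0.00681). Both calls held in all 16 alternatives. About 9.31% of the exon bases of Lamp1 are shared with Grtp1 on the opposite strand, and the counts were not stated to use the strand.

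Lamp2 (ENSMUSG00000016534), the sister glycoprotein that also takes part in autophagy, had 382, 375 and 344 CPM in LPS libraries 1, 2 and 3, against 379, 400.0 and 348 CPM in Vehicle libraries 1, 2 and 3. The groups overlapped, and the 95% interval of the log2 fold change was -0.24 to 0.17. The log2 ratio of Lamp1 to Lamp2 counts was 0.68, 0.69 and 0.83 in LPS libraries 1, 2 and 3, against 1.34, 1.21 and 1.53 in Vehicle libraries 1, 2 and 3, so Lamp1 outnumbered Lamp2 in every library by less with LPS. Mcoln1 (ENSMUSG00000004567), the calcium channel TRPML1, had 43.99, 42.6 and 59.4 CPM in LPS libraries 1, 2 and 3, against 49.6, 45.3 and 48.97 CPM in Vehicle libraries 1, 2 and 3. LPS 3 was above and the other LPS libraries below the Vehicle range, and the 95% interval was -0.31 to 0.34.

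The 250 bases before the start of Lamp1, the membrane gene that fell most, and of Mcoln1, which did not pass the test, are shown because both hold the E-box core CACGTG, the sequence that MiT factors and many other factors of their class bind. Capitals mark CACGTG, or TCACGTGA where the flanking letters also match. The windows are from RefSeq on GRCm38.p6, read 5′ to 3′ on the strand of the gene: Lamp1 at chr8:13158911-13159160, plus strand, and Mcoln1 at chr8:3500269-3500518, plus strand.
Lamp1: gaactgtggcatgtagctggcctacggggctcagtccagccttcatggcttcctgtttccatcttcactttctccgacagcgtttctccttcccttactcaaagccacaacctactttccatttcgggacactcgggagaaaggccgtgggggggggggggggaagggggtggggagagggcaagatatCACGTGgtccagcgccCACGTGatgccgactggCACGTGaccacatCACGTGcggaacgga
Mcoln1: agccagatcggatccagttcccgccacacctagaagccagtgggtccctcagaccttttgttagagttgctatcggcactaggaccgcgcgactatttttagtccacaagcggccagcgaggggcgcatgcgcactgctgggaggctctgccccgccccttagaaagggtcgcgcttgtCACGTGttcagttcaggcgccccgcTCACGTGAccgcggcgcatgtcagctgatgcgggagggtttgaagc
The Lamp1 window holds the core at 4 places, starting 61, 45, 28 and 15 bases before the start of the gene. In the Mcoln1 window it starts 71 and 45 bases before the start, the second time within TCACGTGA. RefSeq windows from 250 bases before to 50 bases after the start were found for 30 of the 36 members, and CACGTG lies in those of 9 members (30%), against 2187 of 27025 genes (8.09%). The longer TCACGTGA, which contains the core, lies in those of 5 members (16.7%), against 1.12% of genes, and GTCACGTGAC, which contains both and is known as the CLEAR palindrome, in none of the 30, against 0.37% of genes. All these motifs read the same on both strands. The genes set beside the members are all those with a window, whether or not expressed in BV2 cells, while every member was expressed. A core was present for 1 of 7 members lower with LPS that had a window (Lamp1), 1 of 3 higher (Gaa) and 7 of 20 that did not pass the test. These are matches of letters in a short window, and binding was not measured.

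**Figure D2:**
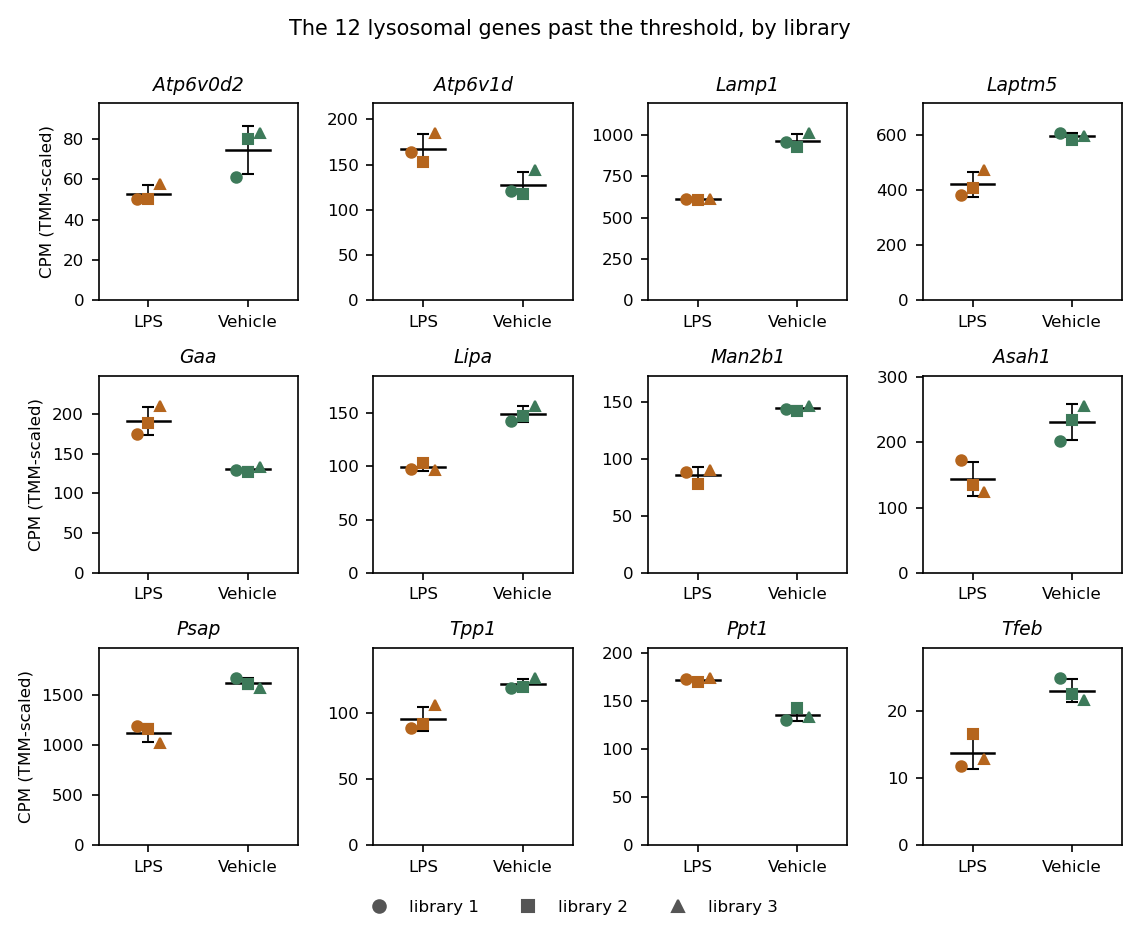
TMM-scaled CPM (vertical axis, from 0) in each library for the 12 genes past the threshold, LPS left and Vehicle right. Points are libraries, the long line is the group mean and the bar is 1 SD (n = 3), and in all 12 panels the groups do not overlap.

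Of 16 proton pump genes 1 rose, 1 fell and 14 did not pass the test, so that 12.5% were called, against 23.6% of all tested genes. The median log2 fold change was -0.02, with 8 members above 0 and 8 below. The groups did not overlap for 8 members, or 50%, against 40.8% of all tested genes, and at an unadjusted p under 0.05 there were 4 higher and 3 lower. The summed level of the 16 genes was 4286, 4277 and 3586 CPM in LPS libraries 1, 2 and 3, against 4039.5, 4172 and 3851 CPM in Vehicle libraries 1, 2 and 3. Its mean was 1.01 times as high with LPS as with vehicle.

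The pump gene that fell encodes an isoform of subunit d. Atp6v0d2 (ENSMUSG00000028238), an isoform of the stalk subunit d that is prominent in mouse osteoclasts and macrophages, had 50.04, 50.1 and 57.7 CPM in LPS libraries 1, 2 and 3, against 60.9, 79.7 and 82.8 CPM in Vehicle libraries 1, 2 and 3. All LPS libraries lay below the Vehicle libraries, with Vehicle 1 nearest to them. The log2 fold change was -0.50 ± 0.14 with an adjusted p = 0.0306, and the call was lost without LPS 1, LPS 2, Vehicle 2 or Vehicle 3, where the adjusted p reached 0.114. Atp6v0d1 (ENSMUSG00000013160), the widely expressed isoform of the same subunit, had 266, 268 and 244 CPM in LPS libraries 1, 2 and 3, against 211, 200.4 and 239.7 CPM in Vehicle libraries 1, 2 and 3. Here every LPS library lay above every Vehicle library, though LPS 3 and Vehicle 3 nearly met, and at 0.26 ± 0.09 the adjusted p = 0.0838 missed the threshold. Without LPS 3 it was called, with an adjusted p = 0.0425.

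The d isoforms can also be set against each other within a library. The log2 ratio of Atp6v0d2 to Atp6v0d1 counts was -2.41, -2.42 and -2.08 in LPS libraries 1, 2 and 3, against -1.79, -1.33 and -1.53 in Vehicle libraries 1, 2 and 3. The groups did not overlap, and the means of -2.31 ± 0.19 with LPS and -1.55 ± 0.23 with vehicle (SD, n = 3 each) differed by -0.75, or by -0.87 to -0.64 when a library was left out. This difference does not depend on the transcript lengths, while the ratio per kilobase does.

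The other V0 genes did not pass the test, and apart from Atp6v0e their log2 fold changes were above 0. Atp6v0c (ENSMUSG00000024121), the proteolipid that forms most of the proton-carrying ring, had 789, 783 and 666 CPM in LPS libraries 1, 2 and 3, against 646, 658 and 439 CPM in Vehicle libraries 1, 2 and 3. The LPS libraries lay above the Vehicle libraries, among which Vehicle 3 was low, and the log2 fold change was 0.36 ± 0.16 (adjusted p = 0.144). With a block for replicate number in the edgeR fit, Atp6v0c was called higher (adjusted p = 0.0378). Reads of Atp6v0c can be shared with processed pseudogenes, of which Atp6v0c-ps2 is 99.78% identical over 39.3% of the Atp6v0c transcript. Atp6v0b (ENSMUSG00000033379), another proteolipid of the ring, had 223, 228 and 159 CPM in LPS libraries 1, 2 and 3, against 156, 158 and 152 CPM in Vehicle libraries 1, 2 and 3. LPS 1 and LPS 2 were well above the Vehicle libraries and LPS 3 was just above them, with an adjusted p = 0.0726 over all libraries and an adjusted p of 0.00119 without LPS 3. About 11.8% of its exon bases lie opposite the antisense gene Gm12841. Atp6v0a1 (ENSMUSG00000019302), the large membrane subunit through which protons leave the ring, had 119, 138 and 140.3 CPM in LPS libraries 1, 2 and 3, against 112, 109.7 and 109.7 CPM in Vehicle libraries 1, 2 and 3. Its log2 fold change was 0.26 ± 0.09 with an adjusted p = 0.0743, and it was called in none of the alternatives. The small subunit gene Atp6v0e (ENSMUSG00000015575) had 103, 88.3 and 80.7 CPM in LPS libraries 1, 2 and 3, against 89.6, 109 and 108 CPM in Vehicle libraries 1, 2 and 3, with overlapping groups and a 95% interval of -0.46 to 0.11.

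Copies of the E-box core lie close together before the start of Atp6v0b, and this window is shown as the one with the most copies among the pump promoters found. No window was found for the pump genes Atp6v0d2, Atp6v1b2, Atp6v1c1, Atp6v1g1 and Atp6v1h. The Atp6v0b window lies at chr4:117887330-117887579, minus strand of GRCm38.p6, and capitals mark CACGTG.
Atp6v0b: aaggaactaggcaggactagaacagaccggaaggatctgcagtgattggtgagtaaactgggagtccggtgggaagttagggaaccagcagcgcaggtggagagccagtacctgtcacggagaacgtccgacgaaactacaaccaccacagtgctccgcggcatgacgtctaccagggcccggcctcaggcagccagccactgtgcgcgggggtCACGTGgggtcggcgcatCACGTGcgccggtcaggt
The copies begin 36 and 18 bases before the start. Single copies within TCACGTGA were found in the windows of Atp6v0d1, Atp6v0e and Atp6v1a, for which the test was not passed either.

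Among the 8 V1 genes, Atp6v1d rose and the others did not pass the test. The share higher, 12.5%, was close to the 12.7% of all tested genes. Atp6v1d (ENSMUSG00000021114), part of the central shaft that turns during ATP hydrolysis, had 164, 153 and 185 CPM in LPS libraries 1, 2 and 3, against 121, 118 and 144 CPM in Vehicle libraries 1, 2 and 3. The lowest LPS library, LPS 2, was above the highest Vehicle library, Vehicle 3. The log2 fold change was 0.39 ± 0.11 with an adjusted p = 0.0386. The call was lost with upper quartile scaling, with total counts, and without LPS 1, LPS 3, Vehicle 1 or Vehicle 2, with an adjusted p up to 0.154. Atp6v1b2 (ENSMUSG00000006273), the B subunit that binds nucleotide beside the catalytic subunit, had 588, 598 and 451 CPM in LPS libraries 1, 2 and 3, against 682, 731 and 642 CPM in Vehicle libraries 1, 2 and 3. The groups did not overlap and LPS 3 was lowest, but at -0.33 ± 0.12 the adjusted p = 0.0848 missed the threshold, and with total counts it was 0.0278. Atp6v1a (ENSMUSG00000052459), the catalytic subunit, had 709, 601 and 569 CPM in LPS libraries 1, 2 and 3, against 703, 729 and 646 CPM in Vehicle libraries 1, 2 and 3, and its 95% interval was -0.38 to 0.09.

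The remaining V1 genes overlapped between the groups. Atp6v1c1, the clamp by which V1 is joined to V0, had a log2 fold change of -0.14 ± 0.11, and Atp6v1g1, of the outer stalks, had -0.17 ± 0.11. Atp6v1e1, also of the outer stalks, had 0.25 ± 0.11, and without LPS 3 it was called with an adjusted p = 0.0208. Atp6v1f of the shaft had 0.11 ± 0.12, and Atp6v1h, which regulates ATP hydrolysis, had 0.16 ± 0.16. Processed pseudogenes resemble Atp6v1g1 and Atp6v1f over part of their transcripts, so their counts are less certain. The accessory gene Atp6ap2 (ENSMUSG00000031007), also known as the prorenin receptor, had 121, 118 and 91.1 CPM in LPS libraries 1, 2 and 3, against 141, 155 and 123 CPM in Vehicle libraries 1, 2 and 3, with groups that did not overlap and an adjusted p = 0.103. Atp6ap1 (ENSMUSG00000019087), which helps the pump assemble, had 116, 199 and 144 CPM in LPS libraries 1, 2 and 3, against 145, 147 and 265 CPM in Vehicle libraries 1, 2 and 3. It was the least even member, with Vehicle 3 highest and LPS 1 lowest, and its 95% interval was -1.03 to 0.48.

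LPS 3 was the lowest of the treated libraries for 12 of the 16 pump genes, and the highest for 3. For 7 of 13 hydrolase and cofactor genes it was the lowest and for 5 the highest. Without LPS 3, 3 pump genes were higher, against 1 with all libraries, while the number was 0 without LPS 1, Vehicle 1 or Vehicle 2. The number of pump genes lower was 0 without LPS 1, LPS 2, Vehicle 2 or Vehicle 3. Which property of the libraries goes with this spread was not tested.

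**Figure D3:**
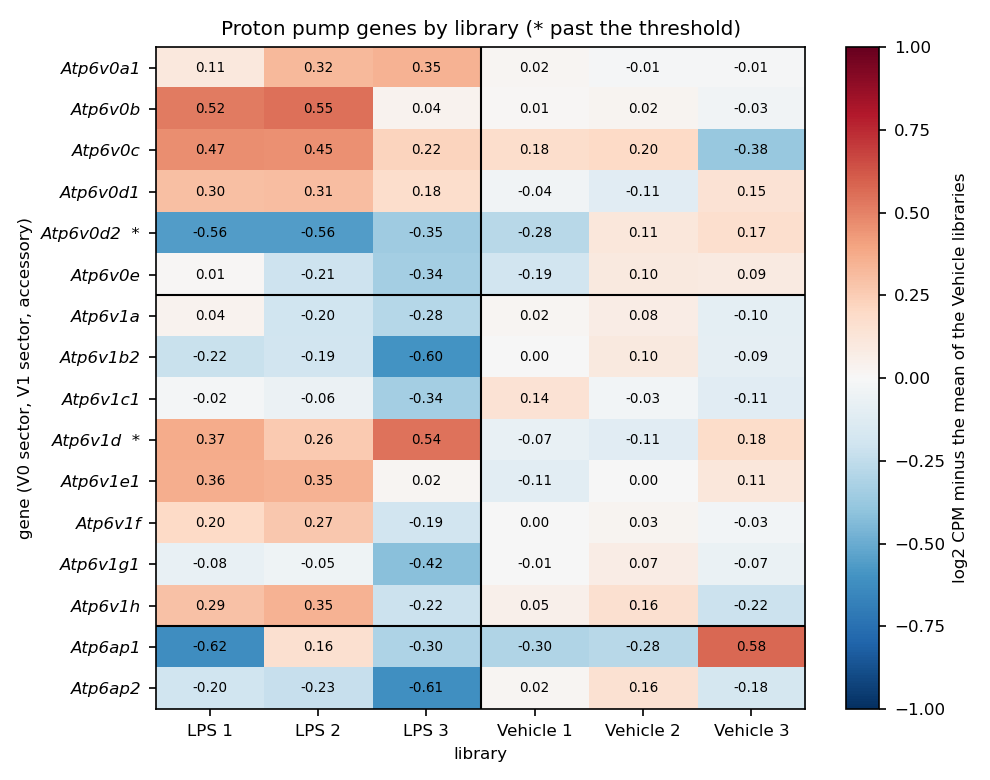
Log2 CPM of the 16 pump genes (rows, V0 sector above, then V1 and accessory genes) in each library (columns), minus the mean of the Vehicle libraries, with a colour scale from -1 to 1. Atp6v0b is at 0.52, 0.55 and 0.04 in LPS 1, LPS 2 and LPS 3, and Atp6v1b2 is at -0.22, -0.19 and -0.60.

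Outside the 16 members, no other subunit or isoform of the pump passed the test. Of the 11 genes in this further list 5 passed the filter, and none was called by edgeR, DESeq2 or limma voom or had an unadjusted p under 0.05. Atp6v0e2 (0.436 CPM with LPS, 0.511 with vehicle) and Atp6v1g2 (1.06 and 1.75 CPM) were near the floor. Rnasek was uneven, with an SE of 0.57 on its log2 fold change. For Atp6v0e2, Atp6v1g2 and Rnasek only a large change could have been called. Tcirg1, the a subunit isoform of osteoclasts and macrophages, averaged 197 ± 6.39 CPM in LPS libraries and 222 ± 6.65 CPM in Vehicle libraries (SD, n = 3 each). Every LPS library lay below every Vehicle library, and the 95% interval of the log2 fold change was -0.35 to 0.00. Of 10 assembly factors (10% called, against 23.6% of all tested genes) 1 rose by edgeR and by limma voom, and 2 by DESeq2 or at an unadjusted p under 0.05. None fell by any of these. The gene called by edgeR was Wdr7, a rabconnectin protein that helps V1 join V0, which averaged 86.8 ± 1.46 CPM in LPS libraries and 59.6 ± 4.11 CPM in Vehicle libraries (SD, n = 3 each), a log2 fold change of 0.54 ± 0.09 (adjusted p = 0.00367). Without LPS 3, 3 assembly factors were called.

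Of 13 hydrolase and cofactor genes 5 fell, 2 rose and 6 did not pass the test. That is 38.5% lower and 15.4% higher, against 10.9% and 12.7% of all tested genes, and the median log2 fold change was -0.10. Without LPS 1 or Vehicle 1, 1 gene of the class was higher. The enzymes that fell act on glycoproteins, lipids and peptides. Man2b1 (ENSMUSG00000005142), the lysosomal alpha-mannosidase that trims sugars from glycoproteins, had 88.3, 77.5 and 90.5 CPM in LPS libraries 1, 2 and 3, against 144, 142 and 147 CPM in Vehicle libraries 1, 2 and 3. The highest LPS library was far below the lowest Vehicle library, and the log2 fold change was -0.75 ± 0.09 (adjusted p = 0.000723). Asah1 (ENSMUSG00000031591), the acid ceramidase, had 173, 135 and 124 CPM in LPS libraries 1, 2 and 3, against 202, 234 and 256 CPM in Vehicle libraries 1, 2 and 3. LPS 1 was the nearest to the Vehicle libraries, the groups did not overlap, and the log2 fold change was -0.68 ± 0.14 (adjusted p = 0.00994). Lipa (ENSMUSG00000024781), the acid lipase that frees cholesterol and fatty acids from engulfed lipoproteins, had 97.5, 103 and 96.9 CPM in LPS libraries 1, 2 and 3, against 143, 147 and 157 CPM in Vehicle libraries 1, 2 and 3. Its LPS libraries were close to each other and all below the Vehicle libraries, with -0.59 ± 0.08 and an adjusted p = 0.00164. The calls of Man2b1, Asah1 and Lipa held in all 16 alternatives.

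Psap had the highest level of the 36 genes per kilobase of the longest annotated transcript in both groups, an order that rests on those lengths. Psap (ENSMUSG00000004207), the precursor of the saposins that present lipids to their hydrolases, had 1187, 1159.8 and 1015 CPM in LPS libraries 1, 2 and 3, against 1668, 1607 and 1567 CPM in Vehicle libraries 1, 2 and 3. The groups were clearly apart, with LPS 3 lowest, and the log2 fold change was -0.53 ± 0.09 (adjusted p = 0.00354), a call that held in all 16 alternatives. Per kilobase Psap averaged 422 ± 34.8 CPM per kilobase in LPS libraries and 608 ± 19.2 in Vehicle libraries (SD, n = 3 each). Grn (ENSMUSG00000034708), the precursor of the granulins, had 690.3, 679.7 and 781 CPM in LPS libraries 1, 2 and 3, against 734, 868 and 894 CPM in Vehicle libraries 1, 2 and 3. LPS 3 overlapped the Vehicle libraries, and at -0.21 ± 0.10 the gene did not pass the test (adjusted p = 0.174). Tpp1 (ENSMUSG00000030894), a tripeptidyl peptidase, had 88.6, 91.6 and 106 CPM in LPS libraries 1, 2 and 3, against 118, 119.5 and 126 CPM in Vehicle libraries 1, 2 and 3. The groups did not overlap and the log2 fold change was -0.35 ± 0.10 (adjusted p = 0.0322). This call did not hold on leaving out any 1 library except LPS 3, with an adjusted p up to 0.103.

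Gaa and Ppt1 rose. Gaa (ENSMUSG00000025579), the acid alpha-glucosidase that degrades glycogen in lysosomes, had 174, 189 and 211 CPM in LPS libraries 1, 2 and 3, against 129.7, 127 and 134 CPM in Vehicle libraries 1, 2 and 3. Every LPS library was above the Vehicle libraries, which lay close together, and the log2 fold change was 0.56 ± 0.09 (adjusted p = 0.00366), with the call held in all 16 alternatives. Ppt1 (ENSMUSG00000028657), a thioesterase that removes fatty acids from proteins, had 173, 170.3 and 174 CPM in LPS libraries 1, 2 and 3, against 130.3, 143 and 134 CPM in Vehicle libraries 1, 2 and 3. The LPS libraries were nearly equal and above the Vehicle libraries, with 0.34 ± 0.08 and an adjusted p = 0.0158. The call was lost with total counts and without LPS 1, Vehicle 1 or Vehicle 3, with an adjusted p up to 0.0757. About 3.51% of the exon bases of Ppt1 are shared with Cap1 on the opposite strand. Ppt1 and Tpp1, both of which cause childhood neuronal ceroid lipofuscinosis when lost in humans, moved in opposite directions, and the log2 ratio of Tpp1 to Ppt1 counts was -0.96, -0.89 and -0.72 in LPS libraries 1, 2 and 3, against -0.14, -0.26 and -0.08 in Vehicle libraries 1, 2 and 3.

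The other 6 genes of this class did not pass the test. Hexa (ENSMUSG00000025232), the alpha subunit of beta-hexosaminidase, had 244, 241 and 224 CPM in LPS libraries 1, 2 and 3, against 246, 235 and 245 CPM in Vehicle libraries 1, 2 and 3, with overlapping groups and a 95% interval of -0.21 to 0.15. Gusb (ENSMUSG00000025534), beta-glucuronidase, had a log2 fold change of -0.10 ± 0.10, and Glb1 (ENSMUSG00000045594), beta-galactosidase, had 0.07 ± 0.10. Hexa shares 12.8% of its exon bases with Tmem202 on the opposite strand, and Glb1 shares 5.49% with Tmppe on the same strand. Smpd1 (ENSMUSG00000037049), the acid sphingomyelinase, had 16.4, 17.9 and 14.5 CPM in LPS libraries 1, 2 and 3, against 14.3, 14.5 and 14.02 CPM in Vehicle libraries 1, 2 and 3. Its groups did not overlap, but LPS 3 and the highest Vehicle library nearly met and the 95% interval was -0.12 to 0.50. Gla (ENSMUSG00000031266), alpha-galactosidase A, had 159, 166 and 134 CPM in LPS libraries 1, 2 and 3, against 106, 109.6 and 186 CPM in Vehicle libraries 1, 2 and 3. Vehicle 3 was the highest of all, and without it edgeR gave 0.50 for the log2 fold change (adjusted p = 0.0345), against 0.19 ± 0.22 (adjusted p = 0.589) with all libraries.

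The promoter windows of Gaa, which rose, and Gla, whose value turned on Vehicle 3, are shown for comparison with that of Lamp1. They lie at chr11:119267713-119267962, plus strand, and at chrX:134601006-134601255, minus strand, of GRCm38.p6, and capitals mark CACGTG or TCACGTGA.
Gaa: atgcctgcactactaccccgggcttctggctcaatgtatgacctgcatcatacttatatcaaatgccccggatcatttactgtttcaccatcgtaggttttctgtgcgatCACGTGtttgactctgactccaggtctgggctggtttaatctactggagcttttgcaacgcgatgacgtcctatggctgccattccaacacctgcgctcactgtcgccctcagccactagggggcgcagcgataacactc
Gla: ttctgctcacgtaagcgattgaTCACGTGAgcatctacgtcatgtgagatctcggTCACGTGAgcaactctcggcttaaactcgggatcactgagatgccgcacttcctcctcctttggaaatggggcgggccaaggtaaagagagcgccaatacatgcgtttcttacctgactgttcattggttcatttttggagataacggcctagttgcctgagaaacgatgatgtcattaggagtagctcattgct
The core begins 140 bases before the start of Gaa. In Gla the longer form begins 228 and 195 bases before the start.

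The levels can also be summed by class. Membrane genes summed to 1423, 1434 and 1489.7 CPM in LPS libraries 1, 2 and 3, against 1995, 1957 and 2003 CPM in Vehicle libraries 1, 2 and 3, a ratio of means of 0.7299. Nearly all of this difference lay in Lamp1 and Laptm5. Lamp2 averaged 367 CPM with LPS and 376 CPM with vehicle, and Mcoln1 48.7 and 48.0 CPM. For hydrolases and cofactors the sums were 3592, 3582 and 3442 CPM with LPS, against 4218, 4268 and 4357 CPM with vehicle, a ratio of 0.827. Both sets of sums were apart between the groups. Much of the second difference lay in Psap and Grn, since the sums over the other 11 genes, the enzymes, averaged 1701 ± 49.4 CPM in LPS libraries and 1835 ± 54.4 CPM in Vehicle libraries (SD, n = 3 each), a ratio of 0.927. Psap alone made up 33%, 32.4% and 29.5% of the class in LPS libraries 1, 2 and 3, against 39.6%, 37.6% and 36% in Vehicle libraries 1, 2 and 3. The MiT factors summed to 97.03, 103 and 115 CPM with LPS, against 109, 111 and 109 CPM with vehicle.

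**Figure D4:**
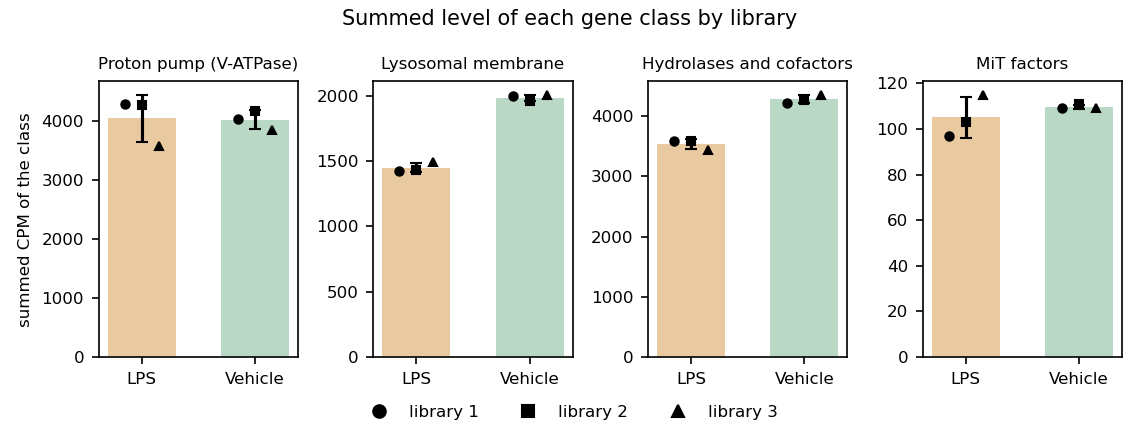
Summed CPM of each class (vertical axis, from 0) for LPS (left) and Vehicle (right). Bars are means with 1 SD (n = 3) and points are libraries, and the groups are apart for membrane genes and for hydrolases and cofactors but overlap for pump genes and MiT factors.

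Other lysosomal hydrolases and cofactors changed in both directions as well. Of 32 tested, 7 rose, 10 fell and 15 did not pass the test, and the median was -0.08 on the log2 scale. Higher calls made up 21.9% of this list and 12.7% of all tested genes, and lower calls 31.25% and 10.9%. The 3 largest falls were those of sulfatases and a hyaluronidase, which degrade glycosaminoglycans. Arsb averaged 107 ± 17.5 CPM in LPS libraries and 307 ± 11 CPM in Vehicle libraries (SD, n = 3 each), a log2 fold change of -1.52 ± 0.12 (adjusted p = 9.65e-05). Ids averaged 3.595 ± 0.686 CPM in LPS libraries and 8.85 ± 1.53 CPM in Vehicle libraries, and Hyal1 averaged 22.1 ± 5.003 CPM in LPS libraries and 51.2 ± 4.76 CPM in Vehicle libraries (SD, n = 3 each). Among the genes that rose, the ribonuclease gene Rnaset2b averaged 45.3 ± 6.92 CPM in LPS libraries and 32.1 ± 2.48 CPM in Vehicle libraries (SD, n = 3 each), a log2 fold change of 0.50 ± 0.14 (adjusted p = 0.0306). Rnaset2b has a near-identical neighbour, Rnaset2a, and its call was lost on leaving out any library except LPS 3, with an adjusted p up to 0.116. The number of genes called in this list was 17 with all libraries, 11 without LPS 2, 9 without Vehicle 1 or Vehicle 2 and 10 without Vehicle 3.

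Of 30 genes tested in a list of other lysosomal membrane proteins, 7 rose, 4 fell and 19 did not pass the test, and their median log2 fold change was 0.09. Counted in it are Npc2, a soluble protein, and Scarb2, which is also in the next list, and neither passed the test. Of this list 23.3% rose and 13.3% fell, against 12.7% and 10.9% of all tested genes. Slc15a3, which moves histidine and peptides across the membrane, averaged 1434 ± 96.2 CPM in LPS libraries and 179.7 ± 7.55 CPM in Vehicle libraries (SD, n = 3 each), a log2 fold change of 3 ± 0.09 (adjusted p = 6.35e-07). Mcoln2, a channel of the same family as Mcoln1, averaged 48.02 ± 4.14 CPM in LPS libraries and 24.6 ± 0.846 CPM in Vehicle libraries (SD, n = 3 each), with 0.97 ± 0.11 (adjusted p = 0.000595). Slc38a9, an arginine sensor of the lysosome, had 0.63 ± 0.12. Among those that fell, the cation channel gene Tpcn1 averaged 116 ± 12.6 CPM in LPS libraries and 193 ± 9.89 CPM in Vehicle libraries (SD, n = 3 each), with -0.74 ± 0.10. Slc17a5, which exports sialic acid, and Ostm1, the partner of the chloride transporter Clcn7, had -0.66 ± 0.18 and -0.49 ± 0.14. These last calls were lost without LPS 2, Vehicle 1, Vehicle 2 or Vehicle 3, and that of Ostm1 also without LPS 3, with an adjusted p up to 0.118. The list had 11 genes called with all libraries and 6 without Vehicle 1 or Vehicle 2.

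Of 14 genes that bring enzymes to the lysosome 3 rose, 3 fell and 8 did not pass the test, so that 42.9% were called, against 23.6% of all tested genes. Gnptab, which makes the mannose phosphate tag, averaged 100.1 ± 7.27 CPM in LPS libraries and 183 ± 16.9 CPM in Vehicle libraries (SD, n = 3 each), a log2 fold change of -0.87 ± 0.10 (adjusted p = 0.000638). Sumf1, which activates sulfatases, had -0.54 ± 0.10 and the adaptor gene Gga2 -0.56 ± 0.14. Cln8, an export receptor for these enzymes in the endoplasmic reticulum, had 0.82 ± 0.16, the adaptor gene Gga1 0.73 ± 0.09, and Nagpa, which uncovers the mannose tag, 0.46 ± 0.11. Gga2 lost its call without LPS 1, Vehicle 1 or Vehicle 2 and Nagpa without LPS 1, Vehicle 2 or Vehicle 3, with an adjusted p up to 0.0840.

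Of 21 tested genes in a list of nutrient signalling to the MiT factors, 1 rose, 4 fell and 16 did not pass the test, with a median of -0.08. The list also holds Tfec, itself a gene of the MiT family, and the repressor gene Zkscan3, and neither passed the test. The share called, 23.8%, was close to the 23.6% of all tested genes. By direction, 19.05% were lower and 4.76% higher, against 10.9% and 12.7% of all tested genes. Mlst8, a subunit of the mTOR complexes, averaged 19.1 ± 1.996 CPM in LPS libraries and 29.9 ± 1.46 CPM in Vehicle libraries (SD, n = 3 each), a log2 fold change of -0.65 ± 0.13 (adjusted p = 0.00703). Rheb, the activator of mTOR, had -0.50 ± 0.13, and Lamtor5, of the Ragulator scaffold, -0.43 ± 0.13. Castor1, an arginine sensor of the cytosol, had 0.72 ± 0.17. Rheb, Lamtor5 and Castor1 each lost the call without Vehicle 1 or Vehicle 2. So did Rheb and Castor1 without LPS 2, Lamtor5 and Castor1 without LPS 1, and Lamtor5 without Vehicle 3 or with no filter, with an adjusted p up to 0.120. The number called was 5 with all libraries, 2 without LPS 2 or Vehicle 1 and 1 without Vehicle 2.

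**Figure D5:**
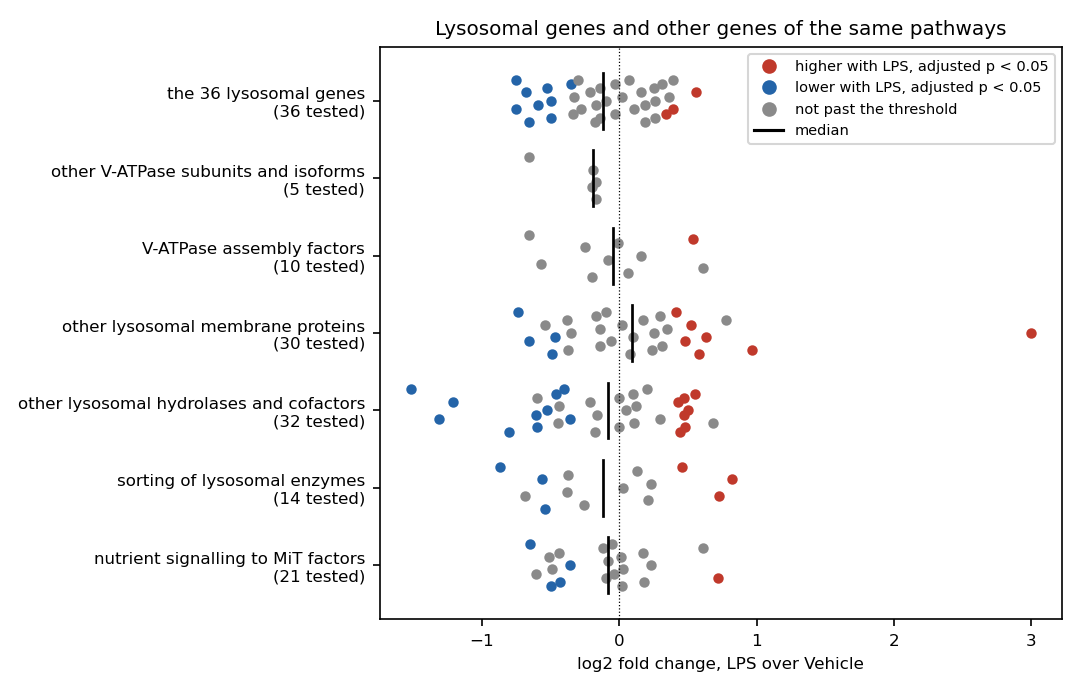
Log2 fold change, LPS over Vehicle (horizontal axis), of the 36 genes and of the tested genes of 6 further lists, with the median as a black line. Red and blue points are genes higher and lower at an adjusted p under 0.05, and the point farthest to the right is Slc15a3.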

How the data were processed

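Poly(A)-selected RNA of 3 libraries of BV2 cells treated with LPS and 3 given Vehicle was sequenced (Illumina NovaSeq, NEBNext Ultra kit), per the labels' protocols. The submitters' processing notes name Bowtie2 2.2.8, HISAT2, StringTie 1.3.1 and DESeq2, with no role or order. Genome build and annotation were not given in the sources, so the only coordinates printed are those of the RefSeq promoter windows. The authors deposited expected counts, which are estimates per gene. All were whole already, and low values were spaced by 3.46 to 3.71 counts, so a value is not a number of reads. Each column was mapped to its sample by name (0 left unmapped).

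Symbols and transcript lengths came from GENCODE M21 by Ensembl identifier. Testing used edgeR 4.0.16 under R 4.3.3 (filterByExpr with a minimum count of 10 and a minimum total of 15, TMM scaling, two-sided quasi-likelihood F-test with robust estimates, Benjamini-Hochberg over 16371 genes). SE is the log2 fold change over the square root of F. CPM are TMM-scaled, with a prior count of 2 for log2 CPM. Intervals cover 95%. Levels per kilobase used the longest transcript. Near-identical copies were searched with BLAST 2.17.0. Promoter windows are from RefSeq (GRCm38.p6), and 33 of 38 member windows were found to run into a GENCODE transcript of the same gene in the same direction. The procedure was tested on simulated data. Figures used matplotlib 3.10.9 in Python 3.11.15.

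All 36 members are named, with up to 3 called genes each way, by size of fold change, from each further list, of which some are not reported here. The members and lists were chosen with earlier results of these data known. Alternatives covered scaling, filters, DESeq2 1.42.0, limma voom (limma 3.58.1), division by the spacing, a block for replicate number and leaving out each library. The edgeR method from before version 4 was added after seeing the data.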

Additional observations from a re-analysis of the deposited data

How the results depend on the processing

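Over the 16 alternatives no member or further named gene changed direction past the threshold. Of the 12 called members 8 stayed called in all 16 (Lamp1, Laptm5, Gaa, Lipa, Man2b1, Asah1, Psap and Tfeb), 15 members were called in none, and 9 not called with all libraries were called in some. With total counts only, 1 member was higher, with 0 pump genes higher, 3 pump genes lower and 1 hydrolase or cofactor gene higher. With upper quartile scaling 0 pump genes were higher. The DESeq2 Wald test called 1 MiT factor higher and 2 assembly factors.

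Leaving out 1 library at a time gave 1291 to 2450 genes higher and 1053 to 2085 lower over all genes (fewest without Vehicle 2), and 1 to 5 members higher and 7 to 10 lower. By class, it gave 0 to 3 pump genes higher and 0 to 1 lower, 1 to 2 hydrolase or cofactor genes higher and 1 to 2 MiT factors lower. It gave 1 to 3 assembly factors called, 6 to 13 other membrane proteins, 9 to 20 other hydrolases and 1 to 6 genes of nutrient signalling. The fold changes of members are small, and at this number of libraries a change that misses the threshold is not shown to be absent.

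The labels give the libraries of both groups the numbers 1 to 3, and nothing states that a number marks a shared culture or day. For this reason the numbers were not taken to pair the libraries. Same-numbered libraries deviated together with correlations of 0.07, 0.05 and 0.06 across genes, and each library correlated best with its own number. These correlations cannot decide whether the libraries are paired, since they run over all tested genes, those of low level included. With a replicate block 2033 genes were higher and 1783 lower, and 4 members were higher and 11 lower, among them 2 pump genes higher and 3 lower, and 2 assembly factors were called.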
